A study of Mus musculus with 2 samples.

Results

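This account covers 8 genes of apoptosis and necroptosis in macrophages with and without lipopolysaccharide (LPS): the caspase genes Casp2, Casp6, Casp8 and Casp9, the caspase-8 regulator gene Cflar, and the necroptosis genes Ripk3, Mlkl and Zbp1. They were chosen by name, with earlier results of these data known, and every probe set that the platform annotation of the Mouse Genome 430 2.0 array gives to one of them and to no other gene was taken. That gave 16 probe sets for 8 of the 18193 genes that have such a probe set, and no probe set shared between one of the 8 and another gene was found. The 2 groups were macrophages grown from C57BL6 mouse bone marrow in RPMI with 10% FBS and M-CSF, either untreated (control) or treated with LPS, the bacterial cell-wall lipid that Toll-like receptor 4 (TLR4) detects. Each group was 1 array, made from 100 ng of total RNA, so no spread between replicates exists, no test was possible, and each difference below describes these 2 arrays and has no replicate check. The labels give no dose, no duration, and no count of mice, and do not say whether RNA of several mice was pooled.

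Apoptosis is carried out by caspases, cysteine proteases made as inactive precursors. Initiator caspases are switched on in large complexes, caspase-8 below death receptors and caspase-9 on the apoptosome that forms around cytochrome c released from mitochondria, and they cleave the executioner caspases. Cellular FLIP, the product of Cflar, resembles caspase-8 but has no protease activity of its own, and it sets how far caspase-8 is activated. Necroptosis is the lytic alternative that caspase-8 holds back: the kinase RIPK3 phosphorylates MLKL, which then breaches the plasma membrane, and RIPK3 is reached through RIPK1, through the TLR adaptor TRIF or through ZBP1, a sensor of left-handed nucleic acids. Macrophages given LPS can die this way when caspases are blocked.

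The promoter windows are shown first, because they carry the one motif match found and a contrast in base composition between the genes that were higher and those that were lower on the LPS array. Windows of 300 bases, from 250 before to 50 after the start of the gene, were taken from RefSeq (build GRCm38.p6) for 7 of the 8 genes. Zbp1 had no entry and is named only. In the first sequence the capitals mark the match to the core of the interferon-stimulated response element (ISRE), and in the other pair they mark CG dinucleotides.
Cflar, chr1:58711241-58711540, plus strand: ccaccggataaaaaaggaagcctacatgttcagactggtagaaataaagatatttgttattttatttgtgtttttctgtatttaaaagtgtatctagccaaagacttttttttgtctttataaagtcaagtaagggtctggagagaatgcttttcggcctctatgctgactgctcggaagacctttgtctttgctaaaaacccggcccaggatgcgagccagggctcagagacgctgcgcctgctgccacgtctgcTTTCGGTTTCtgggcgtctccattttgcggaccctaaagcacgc
Casp8, chr1:58802252-58802551, plus strand: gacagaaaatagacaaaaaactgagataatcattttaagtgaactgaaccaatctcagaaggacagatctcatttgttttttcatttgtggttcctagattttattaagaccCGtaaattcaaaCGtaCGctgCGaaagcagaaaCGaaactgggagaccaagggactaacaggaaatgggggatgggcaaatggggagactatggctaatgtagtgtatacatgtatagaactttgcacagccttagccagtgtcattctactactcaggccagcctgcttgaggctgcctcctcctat
Casp9, chr4:141793362-141793661, plus strand: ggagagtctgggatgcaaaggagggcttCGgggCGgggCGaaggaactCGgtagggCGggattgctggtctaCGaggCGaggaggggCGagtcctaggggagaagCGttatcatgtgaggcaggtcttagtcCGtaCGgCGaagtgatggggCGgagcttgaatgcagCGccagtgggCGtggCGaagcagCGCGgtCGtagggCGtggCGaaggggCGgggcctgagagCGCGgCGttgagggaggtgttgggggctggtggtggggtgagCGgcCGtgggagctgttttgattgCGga

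Motifs of 3 kinds were searched on both strands of these windows: the ISRE core (the letters GAAA, any 2 bases, and GAAA again), the interferon-gamma-activated site TTCNNNGAA, and the kappa-B consensus, the NF-kB binding motif. The Cflar window held 1 ISRE core, read on the minus strand at bases 257 to 266 of the 300. The windows of Casp2, Casp6, Casp8, Casp9, Mlkl and Ripk3 held no match to any of the 3, and the Cflar window none to the latter 2, which says only that these letters are not in these windows. Of all 32851 windows in the table, 3.44% held the ISRE core, 8.3% the interferon-gamma-activated site and 8.46% the kappa-B consensus. Among measured genes with a window, the ISRE core was in 9.86% of the 781 higher by 2-fold or more with LPS and in 3.12% of the 2504 lower by as much. The match is a description of the sequence and not evidence that a factor binds there.

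The windows also differed in CG content. CG dinucleotides numbered 28 in the Casp9 window, 26 in that of Casp2 and 16 in that of Casp6, the 3 genes lower by 2-fold or more with LPS. The windows of the higher genes held fewer, 12 for Cflar, 7 for Mlkl and 5 for Casp8, and that of Ripk3 held 10. The median over all windows was 7, and 14.2% of them held at least as many as the Casp9 window. Over the 9495 measured genes with a window the median was 20, higher than over all windows. Among all measured genes the difference was small, with a median of 18 for those higher by 2-fold or more and 21.5 for those lower by as much. The contrast among these 7 genes is therefore given as a property of the 7 windows.

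The values are MAS5 signals in arbitrary linear units. A floor, each array's own median signal (35.1 units for the control and 26.7 for LPS), marked what was counted as measured, and each gene was represented by its brightest probe set (by mean log2 signal). All 8 genes were measured on both arrays, and 14 of the 16 probe sets were, so no ratio of the 8 genes rests on a value set to the floor. The other 2, one each of Casp6 and Casp9, were under both floors. Each ratio is the log2 of LPS over control, with the deposited scaling kept. Over the 11722 measured genes of the array the median ratio was -0.42, and 8.22% of them were higher with LPS by 2-fold or more and 26.2% lower by as much, so a lower value of modest size is common on this array pair. After centring on the median the shares were 13.1% and 15.3%, and after a loess fit of the ratio on signal, 13.8% and 12.8%. In these terms 23.9% of all calls were higher ones as deposited, 46.2% after centring and 51.8% after loess.

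The 8 genes divided. Zbp1, Cflar, Mlkl and Casp8 were higher with LPS by 2-fold or more, and Casp9, Casp6 and Casp2 were lower by as much, while Ripk3 lay just short of 2-fold lower. Their median ratio was 0.05, against -0.42 for all measured genes, but the ratios ran from -3.05 to 3.89, and the one nearest to an equal signal was Ripk3. That is 4 of 8 on the higher side, beside 8.22% of all measured genes, and 3 of 8 on the lower side, beside 26.2%. In order of the ratio, Zbp1 ranked 108 from the top among the 11722 measured genes, Cflar 223, Mlkl 235 and Casp8 898. From the bottom, Casp9 ranked 206, Casp6 934, Casp2 1942 and Ripk3 3107. As a technical gauge, the log2 ratios of different probe sets of the same gene had a median SD of 0.28 over 4494 genes. The SD was larger for those of the 8 genes with several measured probe sets, at 0.55 for Zbp1, 1.45 for Casp9 and 1.62 for Cflar. The ratio of Cflar exceeded that of Mlkl by only 0.09, less than this gauge, so these neighbours in the order are not told apart, and their order turns with loess.

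**Figure D1:**
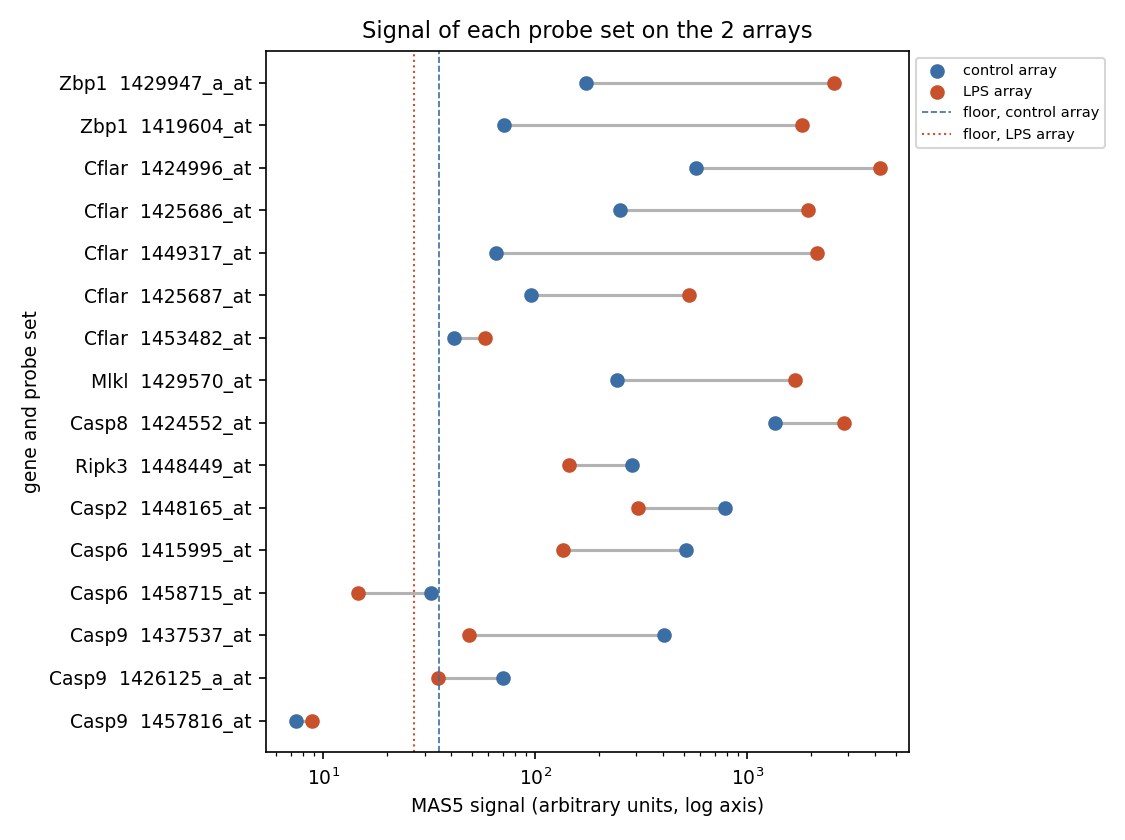
Each row is 1 probe set of the 8 genes, with its MAS5 signal on the control array (blue) and on the LPS array (orange) on a log axis; the vertical lines are the floors of 35.1 and 26.7. The probe sets of Zbp1, Cflar, Mlkl and Casp8 have the LPS signal to the right of the control signal, while those of Ripk3, Casp2 and Casp6 and the 2 measured ones of Casp9 have it to the left.

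Among the necroptosis genes, the sensor and the executioner were high on the LPS array and the kinase between them was not. Zbp1 read 173 units in control cells and 2565 units after LPS by its brighter probe set, 14.8-fold higher. Its other probe set went from 71.2 to 1815, 25.5-fold higher. Both probe sets of Zbp1 therefore moved the same way, 0.78 apart on the log2 scale. The brighter one (1429947_a_at) is of the type designed to match alternative transcripts of a gene.

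Mlkl, the pore-forming pseudokinase, had 1 probe set, which read 242 units in control cells and 1687 after LPS, 6.97-fold higher. Ripk3, also with 1 probe set, read 286 units in control cells and 144 after LPS. That is a log2 ratio of -0.99, or 1.99-fold lower, just outside the 2-fold size, and 26.5% of measured genes had a lower ratio than Ripk3. With the array-wide shift removed, Ripk3 lay closer to an equal signal, at -0.57 after median centring and -0.29 after loess.

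The ratio of Mlkl thus exceeded that of Ripk3 by 3.79 on the log2 scale, and the ratio of Zbp1 exceeded it by 4.88. A constant scaling of either array cancels in such a difference. With loess, which corrects dim and bright genes differently, the differences were 3.45 and 4.52. Zbp1 and Mlkl are both known as interferon-inducible genes in the mouse. In a list of 18 well-known interferon-stimulated genes, 15 were measured. All 15 were past 2-fold on the higher side as deposited, beside 8.22% of all measured genes, at a median of 4.25 on the log2 scale. The ratio of Zbp1, 3.89, and that of Mlkl, 2.80, lay below that median.

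Caspase-8 and its regulator were both higher, to different extents. Casp8, the initiator caspase of the death receptor route, had 1 probe set, at 1346 units in control cells and 2852 after LPS, 2.12-fold higher. Its log2 ratio of 1.08 was 1.51 after median centring, 1.17 after loess and 0.98, short of 2-fold, after quantile normalization. Cflar read 570.4 units in control cells and 4224 after LPS by its brightest probe set, 7.40-fold higher. The ratio of Cflar exceeded that of Casp8 by 1.80 on the log2 scale, and by 1.84 with loess.

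The 5 probe sets of Cflar all had the higher signal on the LPS array, but their ratios spanned 4.54 on the log2 scale. 1425686_at went from 249.5 in control cells to 1933 after LPS, 7.75-fold higher and close to the brightest probe set. 1425687_at went from 95.9 to 533, 5.56-fold higher. 1449317_at went from 65.2 to 2125, 32.6-fold higher, the largest ratio of all 16 probe sets. 1453482_at was near the floor on both arrays, at 41.4 in control cells and 57.8 after LPS, a log2 ratio of 0.48. The median of the 5 equalled the ratio of the brightest, 2.89, so the value given for Cflar does not depend on which of these rules was used. Cflar is known to give a long and a short protein by alternative splicing, but the sources used here do not tell which transcripts each probe set reads.

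The other 3 caspase genes were lower on the LPS array. Casp9, the initiator caspase of the mitochondrial route, read 405 units in control cells and 48.7 after LPS by its brightest probe set (1437537_at), 8.30-fold lower. Its second measured probe set (1426125_a_at) went from 70.0 to 34.8, 2.01-fold lower. The pair lay 2.04 apart on the log2 scale, so the direction was shared while the size was not. The third (1457816_at) was under both floors, with signals of 7.39 and 8.85, and no ratio is given for it.

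Casp6, an executioner caspase, read 512 units in control cells and 135 after LPS, 3.80-fold lower. Its other probe set was under both floors, at 32.1 and 14.6. Casp2, the initiator caspase of the PIDDosome, a complex that responds to DNA damage and extra centrosomes, went from 782 to 305, 2.57-fold lower. After median centring Casp6 was at -1.50 on the log2 scale and still past 2-fold, whereas Casp2 was at -0.94 and within it. Loess gave -1.28 for Casp6, -0.90 for Casp2 and -2.29 for Casp9.

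**Figure D2:**
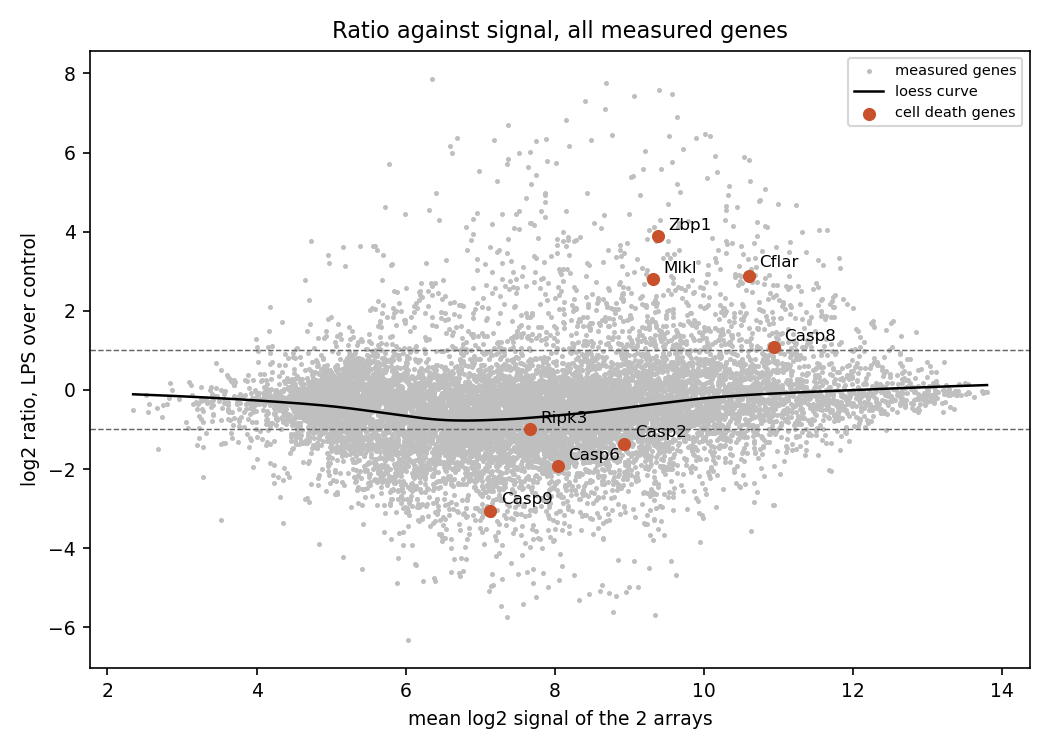
Each grey point is 1 of the 11722 measured genes, with the mean log2 signal of both arrays on the horizontal axis and the log2 ratio (LPS over control) on the vertical axis; orange points are the 8 cell death genes, the black line is the loess curve and dashed lines mark 2-fold. Zbp1, Mlkl, Cflar and Casp8 lie above the upper line, Casp2, Casp6 and Casp9 below the lower one, and Ripk3 at -0.99 lies next to it.

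Each of the 8 genes kept its sign under the 11 alternative ways of scaling, setting a floor or choosing probe sets. The ratio ranged from 3.77 to 4.67 for Zbp1, from 2.85 to 3.31 for Cflar, from 2.72 to 3.22 for Mlkl and from 0.98 to 1.51 for Casp8. On the lower side it ranged from -0.99 to -0.29 for Ripk3 and from -1.36 to -0.90 for Casp2. For Casp6 it ranged from -1.93 to -1.28 and for Casp9 from -3.05 to -2.03. The -2.03 of Casp9 is the median of its 2 measured probe sets. The dimmer of them taken alone was at -1.01 as deposited and -0.59 after median centring, so the size for Casp9 depends on the probe set. The constant scalings moved all 8 together, which brought Ripk3 and Casp2 nearer to an equal signal and moved Zbp1, Cflar, Mlkl and Casp8 farther from it.

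**Figure D3:**
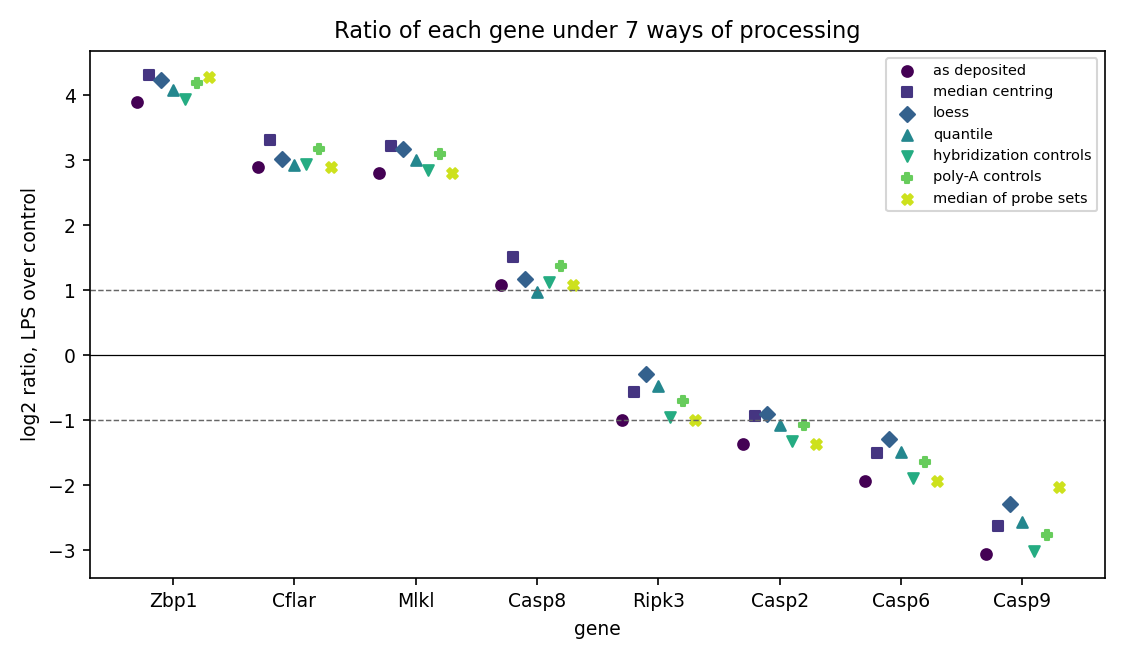
The log2 ratio (LPS over control) of each of the 8 genes as deposited and under 6 alternatives, with 1 symbol for each way of processing and dashed lines at 2-fold. Zbp1, Cflar and Mlkl stay above 2.7 and Casp9 stays below -2 in the values shown. Casp8 ranges from 0.98 to 1.51, Casp2 from -1.36 to -0.90 and Ripk3 from -0.99 to -0.29. The dimmer measured probe set of Casp9, at -1.01 as deposited, is not shown alone.

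The measured caspase genes did not all go the same way. The inflammatory caspase genes Casp4, Casp1 and Casp12, were all past 2-fold on the higher side as deposited, after centring and after loess. Casp4 went from a signal of 413 to 3441, 8.33-fold higher, and Casp1 from 1478 to 4956, 3.35-fold higher. Casp12 was under the floor on the control array at 9.15 and reached 87.8 after LPS, at least 2.50-fold higher. Of the 7 caspase genes measured among both lists, 4 were higher and 3 lower as deposited, beside 8.22% and 26.2% of all measured genes. After centring those shares of all measured genes were 13.1% and 15.3%, and after loess 13.8% and 12.8%. Casp2 was then no longer counted as lower, at -0.94 after centring and -0.90 after loess. Casp6 and Casp9 still were, and the 4 higher genes stayed past 2-fold under both.

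Of 70 other genes of the cell death pathways, listed by role, 63 were measured, and of these 20 were higher by 2-fold or more and 14 lower by as much, with a median of 0.23 on the log2 scale. Over all measured genes the shares were 8.22% higher and 26.2% lower, and the counts of each group below stand against these. After centring, 26 of the 63 were higher and 7 lower, beside 13.1% and 15.3% of all measured genes, and after loess 24 and 4, beside 13.8% and 12.8%. Upstream of caspase-8, 6 of 7 measured receptors and ligands were higher. Fasl and Tnfrsf10b of that list were under both floors. Tnf went from a signal of 102 to 6982 and Tnfsf10, which encodes the death ligand TRAIL, from 45.0 to 1212, a log2 ratio of 4.75 (3 probe sets, from 3.59 to 5.32). Tlr3, a receptor that signals through TRIF, was 9.92-fold higher. Tlr4 was the one lower member, at 799 and 270.3, a log2 ratio of -1.56.

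Of 19 measured genes of the complexes that form below these receptors, 7 were higher and 1 was lower (median 0.43). Tnfaip3, which encodes the ubiquitin-editing inhibitor A20, had a log2 ratio of 4.93, and Ikbke, an IKK-related kinase gene, one of 2.94. Rnf31, which encodes the catalytic subunit of the linear ubiquitin ligase, went from 155 to 842, 5.42-fold higher. Fadd, the adaptor that binds caspase-8 to death receptors, went the other way, from 296 to 126, 2.35-fold lower. After centring 9 were higher and 0 lower, as Fadd was then at -0.81, and loess gave the same counts. Ripk1 was not analysed here. Chuk of the same list was matched only to the symbol Fbxo24, so no reading of Chuk itself is given.

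Of 13 measured genes of the mitochondrial route, on which caspase-9 depends, 1 was higher and 4 were lower as deposited, but 3 were higher and 2 lower both after centring and after loess. The median of -0.08 also turns positive under both. Cycs, the cytochrome c gene, went from 1996 to 8398, 4.21-fold higher. Bbc3, whose product PUMA triggers mitochondrial permeabilisation, went from 469 to 160.04, 2.93-fold lower. Bcl2, a survival gene, went from 87.0 to 29.2, near the floor, 2.98-fold lower, while its other measured probe set gave a log2 ratio of 0.14. Bak1, one of the genes for the pore-forming effectors, had a log2 ratio of 0.68. Apaf1, the scaffold of the apoptosome and the direct partner of caspase-9, was named after its values were seen and read 722 and 903 units, 0.32 on the log2 scale.

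Of 10 measured genes for proteins that caspases cleave, 1 was higher and 6 were lower (median -1.26), 2 were higher and 4 lower after centring, and 1 was higher and 1 lower after loess. The higher one as deposited was Xkr8, a phospholipid scramblase gene, from 58.0 to 826, 14.2-fold higher. The lower ones included Gsdme, which encodes the pore-forming gasdermin E, from 199 to 55.1, 3.61-fold lower, although its other measured probe set gave a log2 ratio of -0.01. Panx1, a channel gene, went from 189.5 to 63.4, 2.99-fold lower. Rock1, a kinase gene, had a log2 ratio of 0.87 by its brightest probe set, the largest of 5 measured ones that reached down to -0.46.

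Among partners of caspase-2 and caspase-8, Cradd, the adaptor that joins caspase-2 to the PIDDosome, had signals of 143 and 62.2, 2.31-fold lower, and Casp8ap2 431 and 202, 2.14-fold lower. Both were within 2-fold after centring. Pidd1, the scaffold of that complex, had signals of 57.4 and 56.4. Of 8 measured accessory genes of necroptosis, 2 were higher and 0 lower (median 0.46). Adar, whose RNA-editing product restrains ZBP1, went from 478 to 1131, 2.37-fold higher, and Chmp4b, a membrane repair gene of the ESCRT machinery, from 2832 to 5688, 2.01-fold higher. Ppm1b, a phosphatase gene, had a log2 ratio of 0.69 by its brightest probe set, the largest of 3 measured ones that reached down to 0.07. Stub1, a ubiquitin ligase gene, had one of -0.33, which was 0.10 after centring and -0.08 after loess.

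**Figure D4:**
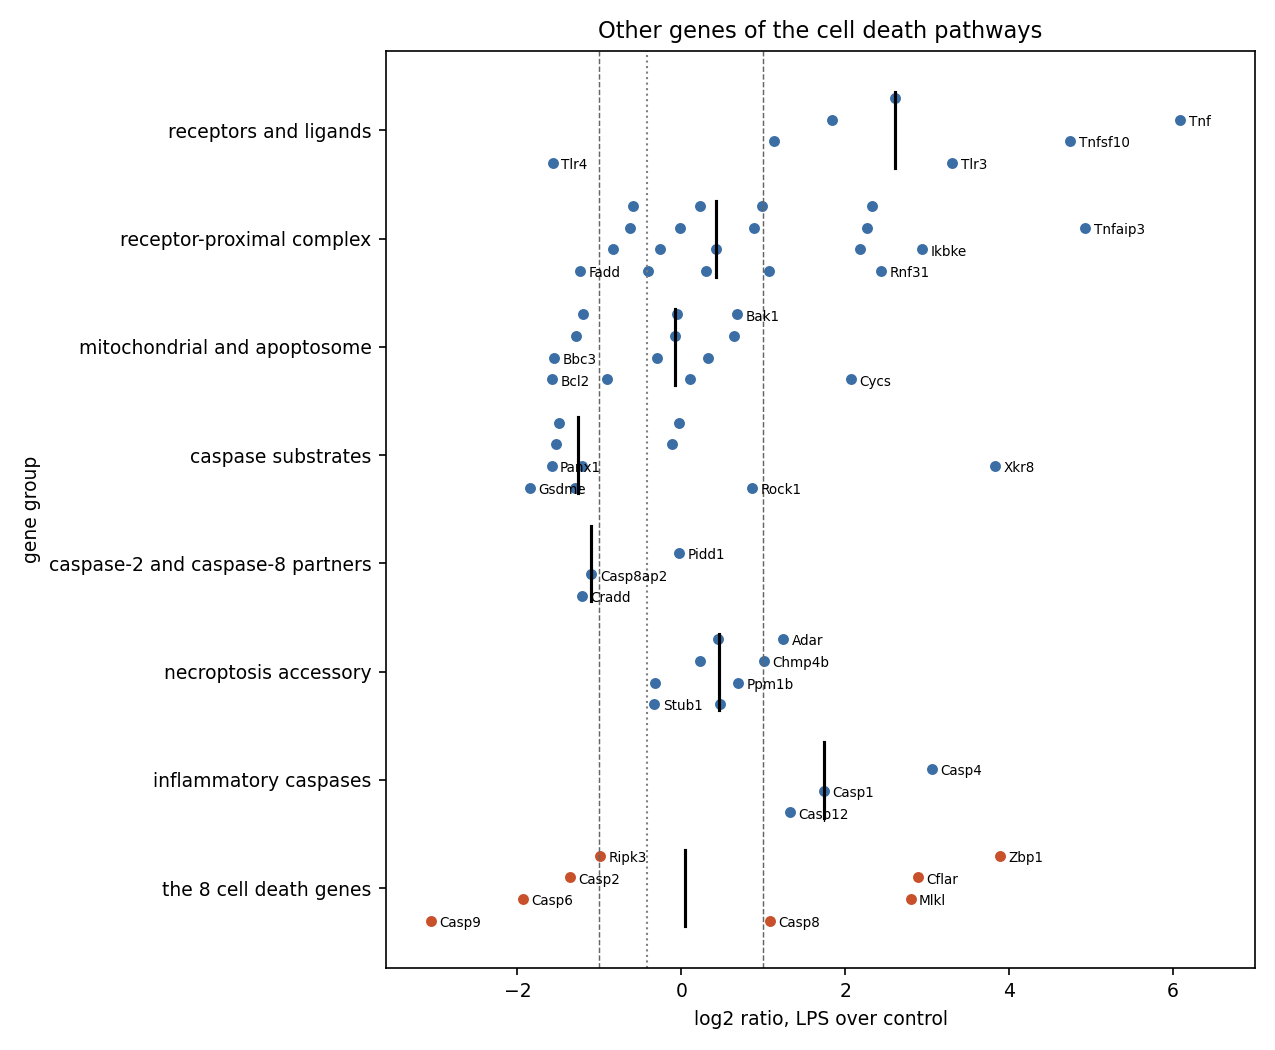
Each point is the log2 ratio (LPS over control) of 1 measured gene, by gene group, with black bars at each group's median, dashed lines at 2-fold and the dotted line at the median of all measured genes (-0.42). The receptors and ligands have a median of 2.61 and the caspase substrates one of -1.26, while the 8 cell death genes (orange) spread to both sides of 0.

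The cells carried the markers of their label: all 8 macrophage markers were above the floor on both arrays, with signals that summed to 41183 in the control and 44120 after LPS. Of markers of other cell types, none of the 4 T cell, 3 mast cell and basophil or 4 fibroblast genes with a probe set reached the floor on either array. The 6 neutrophil markers with a probe set summed to 460.2 and 697, with 3 above the floor on both arrays and Mpo, Elane and Camp under it, and the 3 endothelial markers to 83.7 and 289.7, mostly Kdr. The 3 B cell markers with a probe set summed to 137 and 60.4, the 4 dendritic cell markers to 75.0 and 98.2, the 2 natural killer cell markers to 43.8 and 37.8, and the erythroid marker had signals of 32.1 and 40.0. Their part in the values of the 8 genes was not tested. In such bulk RNA, fewer cells that express a gene and less RNA per cell cannot be told apart.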

How the data were processed

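Total RNA of 1 control and 1 LPS sample was hybridised to 1 array each. The authors deposited MAS5 output, per the submitters' processing notes: an intensity on a linear scale for every probe set of each array. The sources used here do not give the MAS5 version or scaling, and no column of values was left unused (0). Of 45101 probe sets, 64 were array controls and 34945 were assigned to 1 gene. A signal under an array's 50th percentile was set to it before the log2 ratio was taken. A gene was measured if its brightest probe set reached that floor on at least 1 array. Genes were counted by size (2-fold), because 1 array per group allows no test.

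Alternatives were a floor at the 35th or the 65th percentile, no floor but a pseudocount of 16, quantile normalization, median centring, loess (span 0.4), scaling to hybridization or poly-A controls, the median over all probe sets of the gene, only plain probe sets (no a, s or x in the suffix), genes above the floor on both arrays, and sizes of 1.5-fold and 3-fold. Named genes were the 8 genes and, from each pathway list, the 3 largest ratios of either sign plus the 1 most opposed in sign to that list's median. With 2 arrays a gene has 1 ratio, so genes of like pattern were not sought. The genes and lists were chosen with earlier results of these data known. Gene symbols of the 8 matched the RefSeq table of GRCm38.p6. The calculations were tested on simulated data that had no array-wide shift, so that test does not cover the shift between these 2 arrays. The software was Python 3.11.15, pandas 2.3.3, numpy 2.4.6 and statsmodels 0.14.6.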

Additional observations from a re-analysis of the deposited data

How the results depend on the processing

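Among the 8 genes, the number at least 2-fold higher was 4 and the number lower 3 as deposited. The higher number was 3 with quantile normalization (without Casp8) and with a size of 3-fold, and the lower number was 2 with median centring, loess and 3-fold and 4 with 1.5-fold. Their median ratio of 0.05 became 0.47 with median centring, 0.44 with loess and 0.34 with scaling to the poly-A controls. Of the other pathway genes, 14 were lower as deposited, against 8 with quantile normalization, 7 with median centring, 4 with loess, 9 with the poly-A controls and 1 at 3-fold. Of all measured genes, 964 were higher and 3076 lower as deposited. Median centring gave 1537 higher and 1790 lower, loess 1613 and 1500, a size of 1.5-fold 1524 and 4926, and 3-fold 612 and 1428, and quantile normalization gave 1828 lower. The sizes by construction admit more or fewer genes. Median centring and scaling to the controls by construction move every ratio by the same constant. The cause of the array-wide shift, and that of the changes with quantile normalization and loess, was not tested. The shift was -0.05 for the hybridization controls (SD 0.12 over 18 probe sets) and -0.29 for the poly-A controls (SD 0.23 over 24). No paired analysis was possible because each group has 1 array, and for the same reason no replicate could be left out. Signals near the floor, such as those of Casp9 on the LPS array, limit the size of its ratio.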

Other observations

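Cflar and Casp8 lie close together on mouse chromosome 1, with 1 long noncoding RNA gene (Gm39646) listed between them in the RefSeq gene table. Both were higher on the LPS array. The next measured genes beyond Casp8 in that order were not: Trak2 read 389 units in control cells and 281 after LPS, a log2 ratio of -0.47, and Stradb 403 and 157, a log2 ratio of -1.36. No other gene among the 3 entries on either side was measured. These neighbours were chosen after the values of Cflar and Casp8 were seen.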
